A study of Mus musculus with 11 samples.

Results

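The 699 ATAC-seq peaks described here were open in naive and Teff CD4 T cells of the mouse and less open in anergic and Treg cells. They were chosen by their measured values, 699 of 38509 consensus peaks. For each peak the mean of log2(deposited signal + 1) was taken over the libraries of each group, and a peak was kept where naive and Teff each exceeded both anergic and Treg by 0.6 or more and differed from each other by less than 0.6. The differences between those groups at these peaks are therefore a description and carry no test. Every member lay on an assembled chromosome, where they made up 1.82% of 38441 peaks, and all 699 passed the filter on low values.

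Chromatin accessibility was measured by ATAC-seq, in which a transposase cuts and tags open DNA, on sorted CD4 T cells from mixed spleen and lymph node tissue, as 11 libraries. All cells came from untreated wildtype C57BL/6 Foxp3-GFP mice with a polyclonal T cell repertoire. Anergic cells (n = 3) lacked FOXP3 and carried NRP1 with high CD44, CD73 and FR4, and Treg cells (n = 3) carried FOXP3 and CD25. Teff cells (n = 3) lacked FOXP3 and had high CD44 with low CD73 and FR4, and naive cells (n = 2) had low CD44. Whether replicates were separate animals or pools is not stated, so each p-value reflects library-to-library spread, which may be technical. The anergic population was defined by the markers of the sort alone.

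Reads in peaks ranged from 14.7 M in Treg replicate 2 to 68.8 M in anergic replicate 2, with 20.9 to 50.9 M in Teff and 45.7 and 48.1 M in naive libraries. The deposited signal is a read count times a library factor, and 1 read was worth 0.527 to 2.13 units of signal. The level of 49 peaks at genes of the sort markers summed to 20292 to 22829 units in anergic, 18476 to 19339 in Treg, 14614 to 16527 in Teff and 11827 and 12185 in naive libraries, and none of these peaks was a member.

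Regulatory DNA of T cells is opened and kept open by transcription factors that bind short motifs. RUNX factors, which bind with their partner CBFB, and ETS factors, of which T cells hold several, are long known to act at enhancers and promoters of naive and mature T cells, often at adjoining sites. AP-1 factors, which pair JUN with FOS or BATF proteins, open further sites after T cell receptor signalling. Anergic and regulatory T cells are the best known arms of peripheral tolerance in the CD4 lineage: anergic cells respond poorly to their antigen, and Treg cells restrain other cells.

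The letters GGATGTGG, in which an ETS core adjoins a RUNX site, had the largest ratio of their share in these peaks to their share in all distal peaks among the letters searched, so 7 stretches that hold them are shown first. They come from the members with the composite and a large gap between the groups, together with Cd3e, and are aligned on the composite. Capitals mark the composite and RUNX letters, which are TGTGGT on one strand and ACCACA on the other.
Cenpv: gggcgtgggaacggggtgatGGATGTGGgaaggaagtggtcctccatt
Adgrg3: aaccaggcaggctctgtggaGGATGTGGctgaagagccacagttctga
Slc15a1: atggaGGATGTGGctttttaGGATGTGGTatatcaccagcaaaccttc
Rrp12: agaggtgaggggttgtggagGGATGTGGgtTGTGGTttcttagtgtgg
Trat1: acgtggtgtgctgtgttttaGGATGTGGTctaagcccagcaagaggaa
Cfap58: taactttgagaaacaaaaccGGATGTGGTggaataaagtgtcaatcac
Cd3e: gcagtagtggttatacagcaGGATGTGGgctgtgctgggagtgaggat
On the minus strand of GRCm38 lie chr19:41874485-41874532 (Rrp12) and chr9:44998286-44998333 (Cd3e). On the plus strand lie chr11:62507814-62507861 (Cenpv), chr8:95020631-95020678 (Adgrg3), chr14:121478464-121478511 (Slc15a1), chr16:48786411-48786458 (Trat1) and chr19:48023959-48024006 (Cfap58). Each name is that of the gene with the nearest RefSeq start site. The letter before the composite was A in 72.6% of 124 composite sites in members, against 62.7% of 1063 sites in other distal peaks, as in the Trat1 and Slc15a1 stretches.

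The next 3 members are shown over the central bases of the peak, on the plus strand: the Fam234a peak, which had the largest gap between the groups, the Prkcq peak, which had the largest among genes of T cell receptor signalling, and the only member nearest to Batf. Capitals mark RUNX letters in the first pair and the AP-1 letters TGANTCA in the Batf peak.
Fam234a: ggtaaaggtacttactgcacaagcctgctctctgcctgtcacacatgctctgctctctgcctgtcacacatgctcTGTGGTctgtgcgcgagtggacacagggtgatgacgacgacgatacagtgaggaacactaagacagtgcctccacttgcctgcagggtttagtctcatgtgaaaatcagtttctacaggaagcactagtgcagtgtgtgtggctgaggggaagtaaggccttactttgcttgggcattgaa
Prkcq: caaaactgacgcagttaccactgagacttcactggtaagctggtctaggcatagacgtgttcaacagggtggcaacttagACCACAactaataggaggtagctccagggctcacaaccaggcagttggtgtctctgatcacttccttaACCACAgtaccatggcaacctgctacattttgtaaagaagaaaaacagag
Batf: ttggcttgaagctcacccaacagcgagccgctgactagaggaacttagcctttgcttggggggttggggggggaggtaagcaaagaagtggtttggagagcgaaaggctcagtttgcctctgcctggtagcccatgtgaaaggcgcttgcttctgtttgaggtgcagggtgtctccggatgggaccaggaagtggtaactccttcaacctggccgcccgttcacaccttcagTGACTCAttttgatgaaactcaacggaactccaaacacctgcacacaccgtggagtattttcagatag
In GRCm38 these are chr17:26229830-26230085 (Fam234a), chr2:11040094-11040291 (Prkcq) and chr12:85660930-85661229 (Batf). The Fam234a stretch held 1 match of the RUNX letters, the Prkcq stretch held 2, and neither held the composite. The Batf stretch held neither RUNX nor composite letters.

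Every library of the naive and Teff groups lay above every library of the anergic and Treg groups at 622 of the 699 members, and the groups overlapped at the other 77. The rule favours such separation, since it used the means of these same libraries. The share of all peaks separated in this way was not counted. Of all 38493 tested peaks, limma called 16.8% lower in anergic than Teff cells, 18.2% in Treg than Teff cells, 25.1% in anergic than naive cells and 23% in Treg than naive cells (adjusted p under 0.05). The median member signal was 103, 110 and 79.9 units in anergic libraries and 99.1, 117 and 97.5 units in Treg libraries. It was 267, 237 and 213 units in Teff libraries and 256 and 227 units in naive libraries. The median over all peaks lay between 208 and 225 units in every library, so members stood below the typical peak in anergic and Treg cells and near or above it in Teff and naive cells. Median differences in log2 signal were -1.15 for anergic minus Teff, -1.06 for Treg minus Teff, -1.27 for anergic minus naive and -1.15 for Treg minus naive, and over all chromosome peaks none of the medians lay below -0.05. Teff minus naive had a median of -0.07, within the bound the rule sets. Fewer cells with an open site and less opening in each cell cannot be told apart in these bulk libraries.

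**Figure D1:**
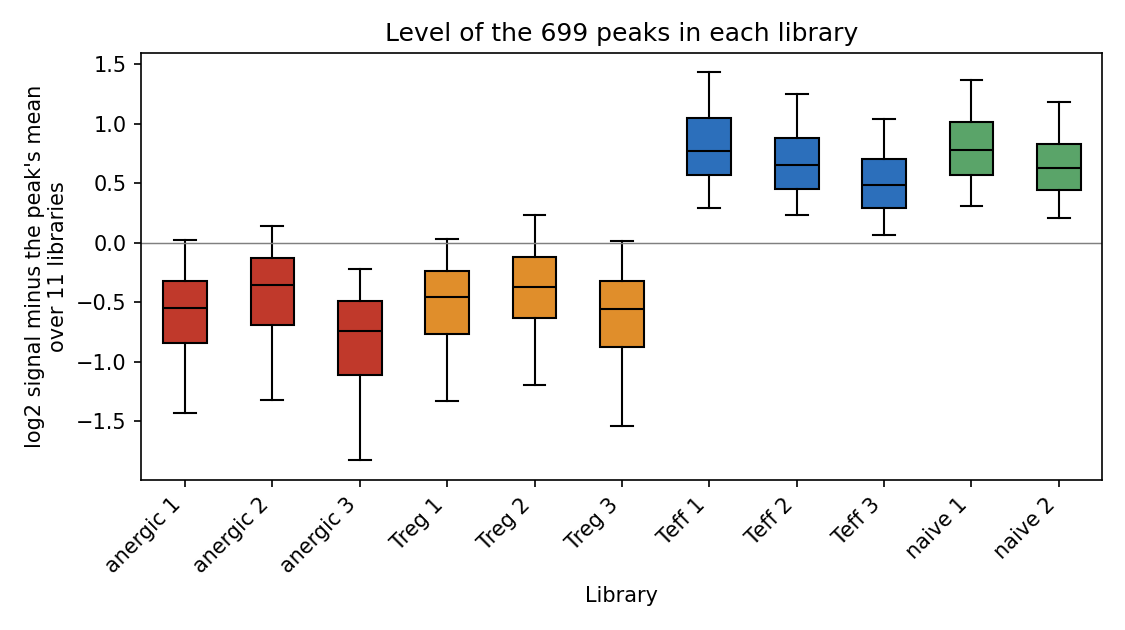
Log2 signal of the 699 peaks in each of 11 libraries, as the difference from each peak's mean over all libraries. Boxes span the quartiles, lines are medians and whiskers the 5th to 95th percentile. Medians lie between -0.74 and -0.36 in anergic and Treg libraries and between 0.48 and 0.78 in Teff and naive libraries, the order by which the peaks were chosen.

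The gap of a member is called its margin here: the lower of the naive and Teff means minus the higher of the anergic and Treg means, in log2 signal. Its median was 0.85 and its largest value 3.17, with 221 members at 1 or more, 50 at 1.5 or more and 16 at 2 or more. At the edge of the rule, the members just inside were nearest to Pag1 (margin 0.6001), Tanc1 (0.6001) and Dyrk1a (0.6007). Just outside stood peaks nearest to Gm31367 (0.5999), Mab21l3 (0.5998) and Mrpl58 (0.5997), so the boundary cuts a continuous range.

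When the rule was applied with 1 library left out, 82.3% (without Teff replicate 1) to 99.1% (without anergic replicate 2) of the members were chosen again. In the library left out, the median gap to the nearer opposite group at the peaks so chosen was 0.69 (Teff replicate 3) to 1.33 (anergic replicate 3), against -0.22 to -0.08 over all peaks. The gap was above 0 at 96.1% to 99.8% of those peaks. Part of this gap is built in, since it is measured to the means of opposite groups whose libraries chose those peaks.

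The member with the largest margin lay in an intron of Fam234a, which encodes a membrane protein, 14.2 kb downstream of its start site. It had 33.2, 23.7 and 14.1 units in anergic libraries and 14.6, 34.1 and 16.5 units in Treg libraries, against 210, 194 and 223 units in Teff libraries and 207 and 220 units in naive libraries. Levels in the anergic and Treg libraries overlapped each other and were all below those in the Teff and naive libraries, and log2 signal differed by -3.17 for anergic minus Teff and -3.30 for Treg minus Teff. This peak was 1 of 5 nearest to Fam234a and its only member.

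Kidins220, a scaffold protein that also associates with the T cell receptor, came next among members with a named gene and a mean log2 signal of at least 6 in naive and Teff cells, with an intronic peak 35.7 kb from its start (chr12:25010444-25010766). That peak had 54.7, 71.2 and 39 units in anergic and 36, 61.7 and 15.2 units in Treg libraries, against 436, 222 and 202 units in Teff and 371 and 264 units in naive libraries. By the same limits, the next was an intergenic peak 1.68 kb upstream of Mctp2, at 49.7, 22.1 and 27.5 units in anergic and 54.1, 23.4 and 22.8 units in Treg libraries, against 159, 183 and 170 units in Teff and 183 and 134 units in naive libraries. Anergic and Treg levels overlapped at both peaks and stayed below every Teff and naive library.

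The member nearest to Cenpv, a centromere protein, lay in an intron of its neighbour Pigl (chr11:62507656-62508108) and held the composite at 2 sites. Its levels were 84.6, 89.6 and 73.2 units in anergic and 66.4, 70.2 and 41.8 units in Treg libraries, against 408, 388 and 332 units in Teff and 570 and 496 units in naive libraries. Anergic libraries were all above Treg libraries there, but the difference did not pass (log2 0.49 ± 0.22 SE, limma adjusted p = 0.0838).

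Other large margins by these limits were at peaks nearest to Spsb4 (margin 2.25), Prkcq (2.23), Tspan32 (2.15), Itm2b (2.13), Mir150 (2.10), Nek10 (2.09) and Pygl (2.06). Mir150 encodes a microRNA of mature lymphocytes, and its member, 7.2 kb upstream, was 86 bases wide with 24.9, 21.1 and 8.73 units in anergic and 11.3, 17 and 15.2 units in Treg libraries, against 54.7, 116 and 66.7 units in Teff and 78 and 85.2 units in naive libraries. Tspan32, a tetraspanin of blood cells, had 184, 133 and 76.6 units in anergic and 92.3, 106 and 30.4 units in Treg libraries, against 762, 703 and 425 units in Teff and 541 and 558 units in naive libraries. At all of these peaks every anergic and Treg library lay below every Teff and naive library. None of them passed the test of anergic against Treg cells when all libraries were fitted by group alone. That test called 14.8% of all tested peaks lower and 19.4% higher in anergic cells. Without Treg replicate 2, anergic cells were higher at Kidins220 (log2 1.15, limma adjusted p = 0.0306), Cenpv (0.63, limma adjusted p = 0.0487) and Tspan32 (1.20, limma adjusted p = 0.0255). Tspan32 also passed without anergic replicate 3 (1.21, limma adjusted p = 0.0178) or Treg replicate 1 (1.10, limma adjusted p = 0.0396). With replicate number added to the fit of all libraries it passed in limma (0.87, limma adjusted p = 0.0019) and in edgeR with TMM scaling (0.77, edgeR adjusted p = 0.00824).

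**Figure D2:**
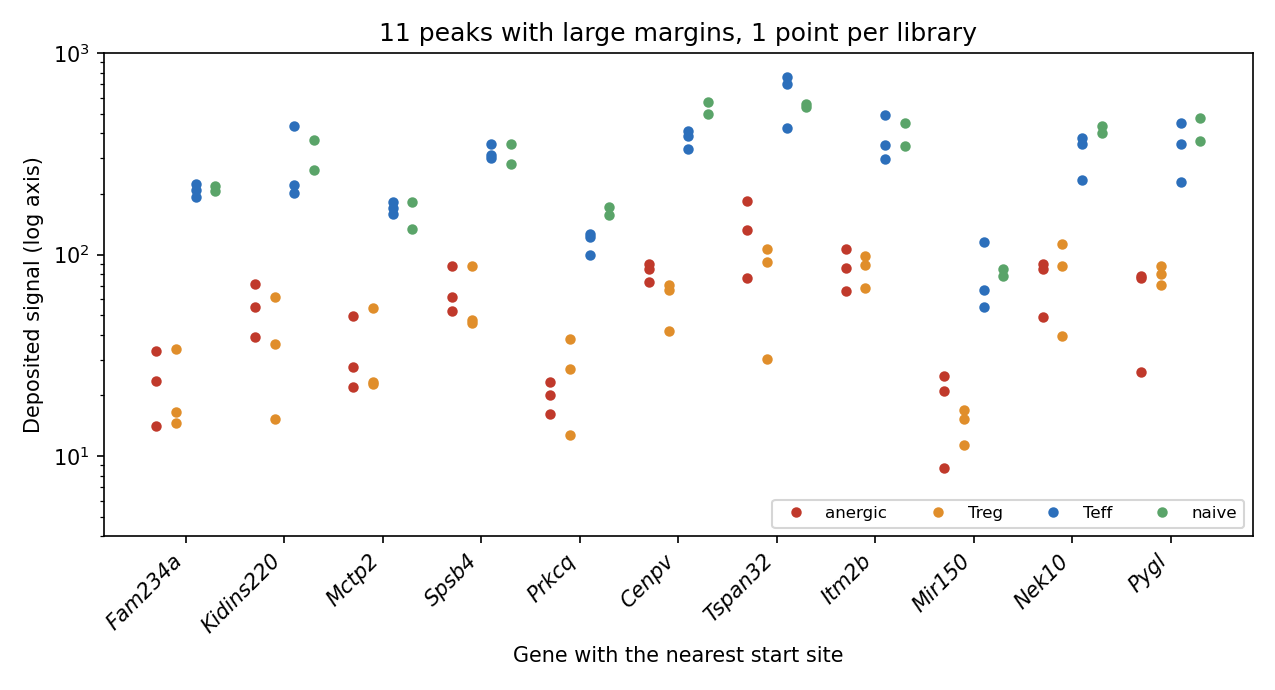
Deposited signal, on a log axis, of 11 peaks with large margins, from members with a named gene and a mean log2 signal of at least 6 in naive and Teff cells, with 1 point per library. At Fam234a the anergic and Treg libraries sit between 14.1 and 34.1 units and the Teff and naive libraries between 194 and 223 units.

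Members were mostly distal. Of the 699, 46 (6.58%) lay within 1000 bases of a RefSeq start site, against 33.2% of all chromosome peaks. Introns held 380 members (54.4%, against 43.2% of all peaks) and intergenic DNA 276 (39.5%, against 38.6%). The median distance from a member's centre to the nearest start site was 16.2 kb, against 5.61 kb over all peaks, and the median width was 313 bases, against 370. Members rarely sat in CpG-rich DNA, with 9.44% holding 10 or more CpG in the central 300 bases, against 36.7% of all peaks. The 653 distal members had a median G and C content of 49.3%, equal to that of all 25673 distal peaks. Of them 6.89% held 10 or more CpG, against 14.2% of distal peaks.

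The 46 promoter members include the start sites of genes that act in T cell signalling. Txk, a kinase below the T cell receptor, had its member 0.043 kb upstream of the start site, at 459, 669 and 452 units in anergic and 607, 498 and 647 units in Treg libraries, against 1299, 1088 and 970 units in Teff and 1452 and 1078 units in naive libraries. Il12rb2, a chain of the IL-12 receptor, had a member in its 5' UTR, 0.049 kb from the start site, at 38.1, 22.7 and 22.8 units in anergic and 21.4, 27.7 and 21.5 units in Treg libraries, against 91.4, 71 and 65 units in Teff and 109 and 68.1 units in naive libraries. Both promoters were lower in every anergic and Treg library than in any Teff or naive library.

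RUNX letters were in 373 of the 653 distal members (57.1%), against 33.1% of all distal peaks. The composite GGATGTGG was in 111 distal members (17%), against 4.52% of all distal peaks. At least 2 RUNX matches were in 17.6% of distal members and 6.93% of distal peaks. Of the distal members, 78 held both kinds of letters, 295 RUNX letters without the composite, 33 the composite without the full RUNX letters and 247 neither. The composite and RUNX letters overlap where a T follows the composite, and RUNX letters without any composite were in 45.2% of distal members against 30.5% of distal peaks. All these shares come from a search of the 300 bases around each peak's centre on both strands, and describe letters, not bound factors. The window reached past the edges of 315 distal members that were narrower, and 109 of the 111 with the composite held it inside the peak itself.

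Peaks of the opposite pattern, higher in anergic and Treg than in naive and Teff cells by the same bounds, differed from the members in their letters. In 1117 such distal peaks RUNX letters were in 23.9%, the composite in 1.61% and AP-1 letters in 32.5%. AP-1 letters were in 8.27% of distal members, against 15.3% of all distal peaks. NF-kB letters were in 0.766% of distal members and 4.92% of peaks of the opposite pattern, against 2.04% of distal peaks. NR4A letters (AAAGGTCA) were in 0.766% and 5.64%, against 1.78%. Letters searched for ETS factors alone, CCGGAA, were in 7.04% of distal members, against 7.53% of distal peaks. Those of TCF-LEF factors, CTTTGAA, were in 8.73% against 8.5%, and those of STAT factors, TTCNNNGAA, in 8.58% against 8.81%. GATA family letters were in 14.4% against 13.8%, so these 4 differed little between distal members and distal peaks. No member held the CTCF core letters in these 300 bases, which were in 2.04% of distal peaks.

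**Figure D3:**
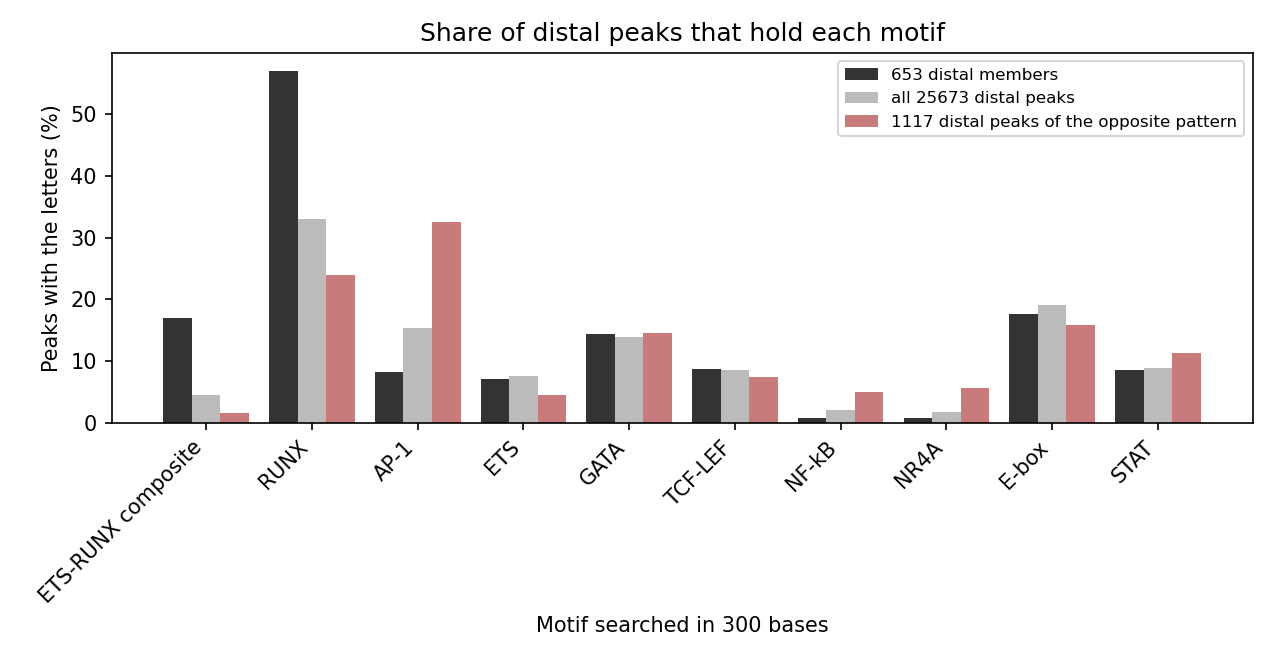
Share of distal peaks that hold each set of letters in the 300 bases around the centre, for the members, for all distal peaks and for peaks higher in anergic and Treg than in naive and Teff cells. The composite is in 17%, 4.52% and 1.61% and AP-1 letters in 8.27%, 15.3% and 32.5% of these sets.

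The composite sat near the middle of the peaks, with 57.9% of its matches in distal members within 50 bases of the centre, and 52.5% in all distal peaks. By margin its share was 16.4% of distal members with margins from 0.6 to 0.8, 14.5% from 0.8 to 1, 19.4% from 1 to 1.5 and 21.7% of the 46 with a margin of 1.5 or more. Of 1161 distal peaks with the composite, 9.56% were members, against 2.54% of all distal peaks. Peaks lower only in anergic cells than in the other 3 groups by the same 0.6 had the composite in 6.67% and RUNX letters in 39.2% of 2293 distal peaks. AP-1 letters were in 8.07% of that set, NF-kB letters in 0.872%, NR4A letters in 1.22% and CTCF core letters in 0.436%. Low shares of these letters were thus not particular to the members.

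The 1050 distal peaks with the composite that were not members leaned the same way, at a smaller size. Their median deviation from the peak's mean log2 signal was -0.08, -0.04 and -0.26 in anergic libraries and -0.04, -0.03 and -0.16 in Treg libraries. It was 0.27, 0.11 and 0.11 in Teff libraries and 0.21 and 0.05 in naive libraries. The 3879 distal non-members with AP-1 letters stood at 0.37, 0.46 and 0.29 in anergic and 0.10, 0.20 and 0.12 in Treg libraries, against -0.12, -0.09 and 0.00 in Teff and -0.59 and -0.56 in naive libraries. These sets were looked at after the members' values were seen, and the libraries are those that chose the members.

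A group of members lay in the immunoglobulin heavy chain locus, which T cells do not rearrange into a functional gene. It was noticed in the list of members, so its counts are a description. Of 27 peaks between the first and last Ighv segment (chr12:113572929-116009954, 183 V segments in RefSeq), 13 (48.1%) were members. The centre of 11 lay inside an annotated segment of the Ighv1 family and the other 2 lay 0.003 kb from one. All 13 held the composite letters, as did 9 of the 14 other peaks of the interval, and in each member they lay at the 3' end of the segment. Read on the plus strand, opposite to these segments, the composite was followed after 6 bases by CACTGTG, the heptamer of the recombination signal that the RAG recombinase reads, in all 13. The 9 letters that end 23 bases before the heptamer, where the nonamer of such a signal lies, were gggtttctg in 8 members, so the composite sits in the spacer. Stretches of 66 bases are shown for 5 of the 13, in their order along the chromosome, with TGTGGT in capitals. These 5 do not span all the variation of the spacer among the 13.
Ighv1-12: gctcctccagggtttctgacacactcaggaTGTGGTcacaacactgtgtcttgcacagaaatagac
Ighv1-52: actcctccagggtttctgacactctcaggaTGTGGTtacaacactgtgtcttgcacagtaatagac
Ighv1-62-2: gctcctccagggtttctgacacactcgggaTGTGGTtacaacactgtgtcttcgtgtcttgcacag
Ighv1-77: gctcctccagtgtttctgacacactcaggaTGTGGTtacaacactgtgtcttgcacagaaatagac
Ighv1-85: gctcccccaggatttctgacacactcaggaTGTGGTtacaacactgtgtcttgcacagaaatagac
Their positions on the plus strand of GRCm38 are chr12:114615802-114615867 (Ighv1-12), chr12:115145439-115145504 (Ighv1-52), chr12:115446361-115446426 (Ighv1-62-2), chr12:115861819-115861884 (Ighv1-77) and chr12:115999980-116000045 (Ighv1-85).

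Signal at these 13 members differed between copies, while the order of the groups was set by the rule. The peak at Ighv1-12 had 138, 164 and 139 units in anergic and 200, 145 and 166 units in Treg libraries, against 378, 356 and 338 units in Teff and 331 and 369 units in naive libraries. At Ighv1-77 the signal was 348, 345 and 296 units in anergic and 305, 479 and 323 units in Treg libraries, against 628, 630 and 542 units in Teff and 643 and 760 units in naive libraries. Every Teff and naive library was above every anergic and Treg library at 12 of the 13 (622 of all 699 members), and margins ran from 0.62 to 1.05. The rule favours this separation. None of the 13 passed the test of anergic against Treg cells (log2 difference -0.28 to 0.34), and Treg replicate 2, the library with the fewest reads, was the highest Treg library at 11 of 13. Without it Ighv1-52 was higher in anergic cells (0.64, limma adjusted p = 0.0138), and without Treg replicate 3 Ighv1-85 was lower (-0.52, limma adjusted p = 0.0494). Over all 27 peaks of the interval the median was -0.81 for anergic minus Teff, -0.82 for Treg minus Teff and 0.04 for Teff minus naive.

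Copies of the Ighv1 family share part of their sequence. The share of a member's 20-base stretches also found in another of the 13 ran from 29.5% to 76.9%, with a median of 44.8%. How reads with several matching places were handled is not stated, so the level of a single copy is uncertain. Without the Ighv members, 98 of 640 distal members (15.3%) held the composite and 56.2% held RUNX letters. The summed level of 12 peaks at B cell marker genes was 1926 to 2217 units in anergic and 2484 to 2731 units in Treg libraries, against 1079 to 1232 units in Teff and 1339 and 1410 units in naive libraries. That is the opposite order to that of the Ighv members, whose order the rule set. The part of B cells in these levels was not tested.

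**Figure D4:**
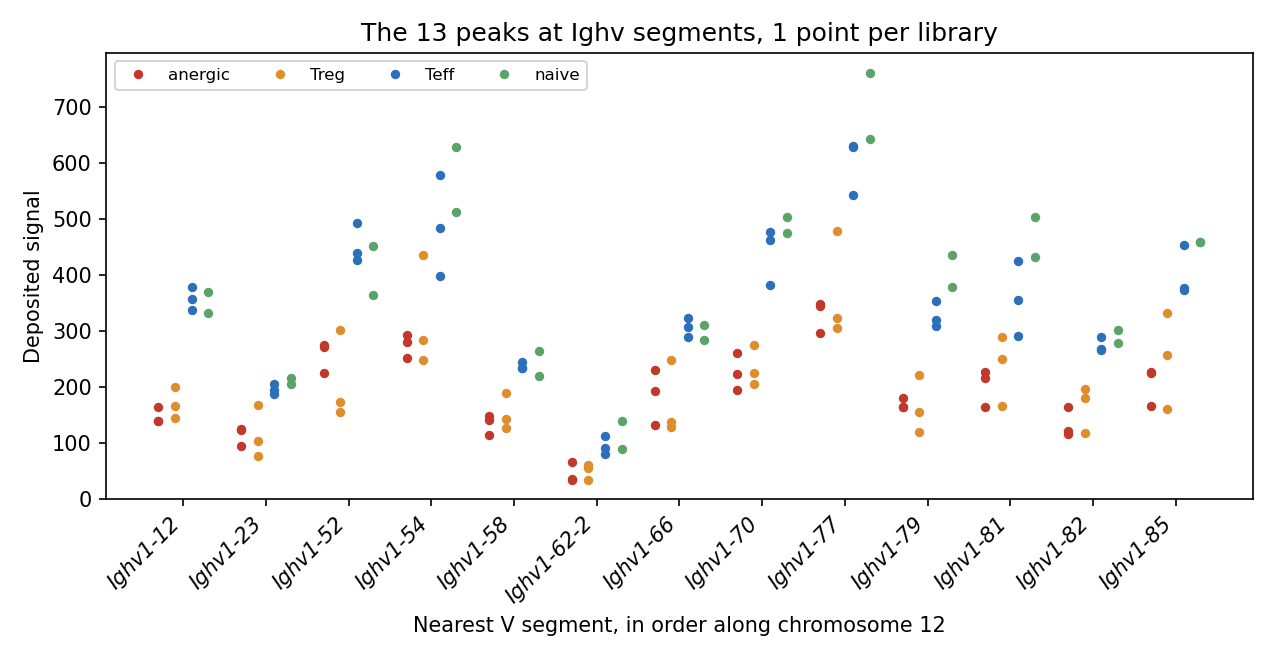
Deposited signal of the 13 members in the Ighv interval, named by the nearest V segment, with 1 point per library. Anergic and Treg points lie below Teff and naive points at 12 of the 13 peaks, the order by which the peaks were chosen. Levels run from 32.7 units at Ighv1-62-2 to 760 units at Ighv1-77.

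Members were spread over 583 nearest genes, 492 of them with 1 member, 74 with 2 and 17 with 3 or more. In order along the chromosomes, 116 members were next to another member, in 54 runs of consecutive peaks. The longest run had 4 peaks on chromosome 7 (chr7:140186752-140321376), nearest to olfactory receptor genes and Cd163l1. Runs of 3 lay in introns of Mgat4a and Cox10, at Il7r and Spef2, at Kcnc1 and Sergef, upstream of Mctp2, and in the Ighv interval. Genes with the most members were 4930594C11Rik, whose 5 members lie in Mgat4a introns, and, with 4 each, 9630013K17Rik in Cox10 introns, Gramd3, Tgfbr2, Galnt2, and Gm30948 and Zfp386 by way of the Ighv interval.

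Cytokine receptors and their JAK-STAT partners carry survival and differentiation signals into T cells, and 15 of 289 peaks (5.19%) at these genes were members, against 1.82% of all peaks. They lay nearest to 8 of 35 genes: Tgfbr2 with 4, Il7r and Il12rb2 with 3 each, and Stat5b, Jak1, Socs1, Il21r and Il12rb1 with 1 each. Tgfbr2, the TGF-beta receptor that restrains T cells, had 3 members in introns and 1 upstream, of 16 peaks. At the intronic peak 6.16 kb from the start (chr9:116169000-116169415) the signal was 111, 98 and 59.1 units in anergic and 64.2, 102 and 79.8 units in Treg libraries, against 237, 213 and 173 units in Teff and 219 and 189 units in naive libraries. The upstream peak (chr9:116181653-116182000) had 61.3, 73.3 and 79.3 units in anergic and 90.1, 123 and 65.8 units in Treg libraries, against 234, 219 and 167 units in Teff and 227 and 196 units in naive libraries. At both peaks the anergic and Treg libraries overlapped each other and lay below all others.

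Il7r, the receptor for the survival cytokine IL-7, had its widest gap 70.3 kb upstream, in an intron of Spef2 (chr15:9600149-9600304). The peak stood at 9.95, 10 and 10.1 units in anergic and 12.4, 29.8 and 17.7 units in Treg libraries, against 78.2, 75.2 and 71.7 units in Teff and 91.8 and 77.4 units in naive libraries. All anergic libraries were below all Treg libraries, but the difference did not pass (log2 -0.84 ± 0.42 SE, limma adjusted p = 0.13) in the fit of all libraries. Il21r, the IL-21 receptor, had a member 2.66 kb upstream, at 18.2, 15.8 and 36.3 units in anergic and 32.7, 76.6 and 57 units in Treg libraries, against 97.6, 90 and 85 units in Teff and 126 and 96.8 units in naive libraries. Il21r was lower in anergic than Treg cells (log2 -1.22 ± 0.37 SE, limma adjusted p = 0.0138), though 1 anergic library was above 1 Treg library, and the call was lost without anergic replicate 2 (-0.99, adjusted p = 0.0653) or Treg replicate 2 (-0.95, adjusted p = 0.0821). Of the 15 members of the list, 3 were lower and 1 higher in anergic than Treg cells, and of all 289 peaks of the list 113 were lower and 37 higher, against 14.8% and 19.4% of all tested peaks.

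Factors that set T cell lineage and the RUNX and ETS genes themselves had 11 members of 341 peaks (3.23%), nearest to Ikzf1 (3), Runx1, Fli1 and Runx3 (2 each), Elf1 and Zfp36l2 (1 each). Runx1, the RUNX factor of naive T cells, had an intronic member 4.03 kb from the nearest start site (chr16:92821679-92822406) at 501, 800 and 696 units in anergic and 632, 653 and 667 units in Treg libraries, against 1547, 1457 and 1103 units in Teff and 1930 and 1470 units in naive libraries. Runx3, the RUNX factor of cytotoxic and Th1 cells, had an intronic member 3.07 kb from the nearest start site (chr4:135155422-135155816) at 118, 219 and 165 units in anergic and 74.3, 89.4 and 101 units in Treg libraries, against 305, 370 and 468 units in Teff and 414 and 502 units in naive libraries. The Runx3 peak was higher in anergic than Treg cells (log2 0.88 ± 0.22 SE, limma adjusted p = 0.00449), with no overlap, while Runx1 levels did not separate anergic from Treg cells (0.01 ± 0.16, adjusted p = 0.983). Runx1 has 2 of 32 peaks and Runx3 2 of 21 among the members. Zfp36l2, an RNA-binding protein that favours quiescence, had its member in an intron of Thada, at 77.9, 125 and 81.3 units in anergic and 98, 74.5 and 105 units in Treg libraries, against 427, 296 and 328 units in Teff and 268 and 228 units in naive libraries.

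Th1 and cytotoxic genes had 6 members of 146 peaks (4.11%), nearest to Il12rb2 (3), Runx3 (2) and Il12rb1 (1). The lists overlap, and all 6 were already counted among the cytokine receptor or lineage factor genes. Il12rb1, the chain shared by the IL-12 and IL-23 receptors, had an intronic member 3.03 kb from its start (chr8:70811357-70811596) with 109, 88.6 and 60.5 units in anergic and 90.1, 87.3 and 51.9 units in Treg libraries, against 210, 139 and 140 units in Teff and 219 and 197 units in naive libraries. Anergic and Treg libraries overlapped there, as at the Il12rb2 member in the 5' UTR. A further Il12rb2 member, in an intron 8.53 kb from the start (chr6:67348004-67348434) and named after its values were seen, had 144, 284 and 167 units in anergic and 84.5, 97.9 and 59.5 units in Treg libraries, against 756, 643 and 347 units in Teff and 399 and 347 units in naive libraries. All anergic libraries were above all Treg libraries at that peak (log2 1.26 ± 0.27 SE, limma adjusted p = 0.00115, called in 14 of 14 alternative fits).

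Genes of naive and quiescent T cells had 11 members of 497 peaks (2.21%), near the 1.82% of all peaks: 3 each at Ikzf1 and Il7r and 1 each at Tcf7, Tob1, S1pr1, Lef1 and Klf3. The members at Ikzf1 and Il7r were already counted among the lineage factor and cytokine receptor genes. Of the 11 members 2 were lower and 0 higher in anergic than Treg cells. Of all 497 peaks of the list 228 were lower and 30 higher, with a median log2 difference of -0.51, so lower levels in anergic cells were not particular to its members. Of all tested peaks 14.8% were lower and 19.4% higher. Lef1, a TCF-LEF factor of naive T cells, had 1 member of 49 peaks, 52.8 kb upstream (chr3:131057219-131057712). It had 156, 122 and 139 units in anergic and 336, 387 and 365 units in Treg libraries, against 921, 761 and 588 units in Teff and 758 and 666 units in naive libraries. This Lef1 peak stood in 3 steps, with every anergic library below every Treg library (log2 -1.38 ± 0.17 SE, limma adjusted p = 2.38e-06). Both groups lay below every Teff and naive library, an order the rule favours. Klf3, a repressor of the KLF family, had an intronic member at 92.8, 53.2 and 72.5 units in anergic and 91.2, 160 and 105 units in Treg libraries, against 309, 299 and 320 units in Teff and 275 and 275 units in naive libraries. Klf3 was lower in anergic than Treg cells (-0.69 ± 0.24, limma adjusted p = 0.0273), and the call was lost without anergic replicate 2 (-0.48, adjusted p = 0.142), anergic replicate 3 (-0.70, adjusted p = 0.0554) or Treg replicate 2 (-0.46, adjusted p = 0.165).

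T cell receptor signalling had 7 members of 317 peaks (2.21%), near the 1.82% of all peaks, among them 2 at Prkcq and 1 each at Cd3e, Txk and Nck2. Prkcq encodes protein kinase C theta, which links the receptor to NF-kB, and its member lay 132 kb upstream. That peak had 23.2, 20 and 16.1 units in anergic and 27, 38.3 and 12.7 units in Treg libraries, against 127, 99.1 and 122 units in Teff and 157 and 172 units in naive libraries. Cd3e, a chain of the receptor complex, had an intergenic member 11.3 kb downstream of its start (chr9:44998161-44998480), the last composite stretch shown, at 74.6, 79.1 and 67.8 units in anergic and 110, 80.9 and 97.5 units in Treg libraries, against 319, 210 and 212 units in Teff and 259 and 283 units in naive libraries. Cd3e levels were lower in all anergic than in all Treg libraries, a difference that did not pass (-0.37 ± 0.22, limma adjusted p = 0.208). Among negative regulators of the receptor, 2 of 209 peaks (0.957%) were members, both at Pag1, the adaptor that recruits the kinase CSK.

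Batf, the AP-1 factor in the study's title, had 1 member of 10 peaks, 25.6 kb upstream (chr12:85660918-85661243). It was the only member at the AP-1, BATF and IRF factor genes (1 of 108 peaks, 0.926%, against 1.82% of all peaks). The signal was 106, 174 and 99.4 units in anergic and 118, 168 and 100 units in Treg libraries, against 276, 325 and 270 units in Teff and 190 and 212 units in naive libraries. Anergic and Treg levels overlapped (log2 -0.04 ± 0.23 SE, limma adjusted p = 0.92), and the margin over naive was 0.67. The BCL2 family and cell death list, which holds Bcl2l11, the gene of BIM, had no member among 125 peaks. At the 1.82% of all peaks, few members would fall in lists of these sizes.

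Other lists had 0 to 2 members each, at shares near or below the 1.82% of all peaks: 2 of 151 peaks for inhibitory receptors and exhaustion regulators (Prdm1 and Nr4a3), 2 of 279 for migration and adhesion (S1pr1 and Selplg), 2 of 99 (2.02%) for Th17 genes (Batf and Il21r), 1 of 142 for the Treg signature (Prdm1), 1 of 153 for follicular helper genes (Cd40lg), none of 78 for Th2 genes and none of 68 for housekeeping genes. Prdm1, the gene of BLIMP1, had its member 29.1 kb from its start (chr10:44429529-44429822) at 46.4, 77 and 27.5 units in anergic and 122, 136 and 138 units in Treg libraries, against 268, 244 and 203 units in Teff and 221 and 210 units in naive libraries. Selplg, the ligand of P-selectin, had a wide member 11.9 kb upstream (chr5:113841806-113842976) at 390, 500 and 366 units in anergic and 755, 766 and 551 units in Treg libraries, against 1803, 2208 and 1437 units in Teff and 1306 and 1214 units in naive libraries. Both were lower in anergic than Treg cells without overlap (Prdm1 -1.49 ± 0.28, limma adjusted p = 0.000274; Selplg -0.72 ± 0.16, limma adjusted p = 0.00167).

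Gramd3, which encodes a GRAM domain protein, had 4 members of 15 peaks. Its member 0.074 kb upstream of the start site (chr18:56431697-56432419) had 456, 380 and 322 units in anergic and 345, 358 and 296 units in Treg libraries, against 1478, 1387 and 1140 units in Teff and 1172 and 1027 units in naive libraries. An intronic member 15.1 kb away (chr18:56446892-56447643) had 589, 685 and 408 units in anergic and 688, 530 and 472 units in Treg libraries, against 2559, 1948 and 1452 units in Teff and 2632 and 1650 units in naive libraries. At both, anergic and Treg libraries overlapped and sat far below the others. The members at 26.9 and 31.4 kb were lower in anergic than Treg cells (-0.91 ± 0.24 and -0.97 ± 0.32, limma adjusted p = 0.00481 and 0.0224). The call at 31.4 kb was lost without anergic replicate 2 (-0.93, adjusted p = 0.0576), anergic replicate 3 (-0.60, adjusted p = 0.155) or Treg replicate 3 (-0.81, adjusted p = 0.0917).

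The 4 members at Galnt2, which encodes an enzyme that starts O-linked glycosylation, lay in its introns and differed in how anergic and Treg cells compared. The member 88.2 kb from the start (chr8:124319319-124319918) had 82.9, 54.8 and 35.6 units in anergic and 184, 143 and 161 units in Treg libraries, against 372, 288 and 242 units in Teff and 383 and 399 units in naive libraries. Another, 86.7 kb from the start (chr8:124317795-124318299), had 514, 736 and 572 units in anergic and 411, 485 and 414 units in Treg libraries, against 1469, 1334 and 1057 units in Teff and 1525 and 1192 units in naive libraries. So the weaker peak was lower in anergic than Treg cells (-1.55 ± 0.25, limma adjusted p = 6.79e-05) and its stronger neighbour higher (0.46 ± 0.15, limma adjusted p = 0.0246). The second call was lost without anergic replicate 2 (0.32, adjusted p = 0.142), Treg replicate 1 (0.42, adjusted p = 0.0806) or Treg replicate 3 (0.43, adjusted p = 0.0747), and when values were scaled by total (0.33, adjusted p = 0.116).

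Whether both kinds of tolerant cell had these peaks closed to the same degree is addressed by anergic against Treg cells. The rule bounds both groups from above by the same terms and favours neither direction, so this comparison was tested. It does leave out peaks where either group stood high, which can limit how far the groups differ. The shares called in members and in all peaks are therefore not fully alike. Of the 699 members, 90 (12.9%) were lower in anergic than Treg cells and 54 (7.73%) were higher, at a limma adjusted p under 0.05, and 555 were not called. Over all 38493 tested peaks, 14.8% were lower and 19.4% higher in anergic cells. Among the members 44 (6.29%) were called lower and 20 (2.86%) higher by at least 2-fold, against 6.89% and 7.36% of all tested peaks. All 3 anergic libraries were below all 3 Treg libraries at 107 members (15.3%, against 19.3% of all tested peaks) and above them at 65 (9.3%, against 25.2%). Most members were distal, and the 653 distal members stood below all distal tested peaks in each of these shares. They were lower at 13.2% and higher at 7.35%, against 18.6% and 18.8%. At 2-fold or more the shares were 6.43% and 3.06%, against 9.33% and 10.2%. Without overlap they were 15.6% and 8.88%, against 23.8% and 24.2%.

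The members' median difference in log2 signal, anergic minus Treg, was -0.10 (quartiles -0.39 and 0.18), against 0.04 over all peaks. Distal members also had a median of -0.10, which lay nearer to the -0.03 of all distal tested peaks. Scaling by the total over all peaks moved the median of all peaks to -0.09 and that of the members to -0.23, so the members' median stood at -0.14 relative to that of all peaks on either scale. On that scale 116 members were lower and 35 higher, and 7570 and 5078 of all peaks, against 5680 and 7462 on the deposited scale. Leaving out anergic replicate 3 gave 59 lower and 52 higher members with a median of -0.01, and leaving out Treg replicate 2 gave 63 and 59 with a median of -0.05. Without anergic replicate 2 there were 95 lower and 32 higher members. Anergic replicate 3 had the lowest median member signal of the anergic libraries and Treg replicate 2 the highest of the Treg libraries.

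**Figure D5:**
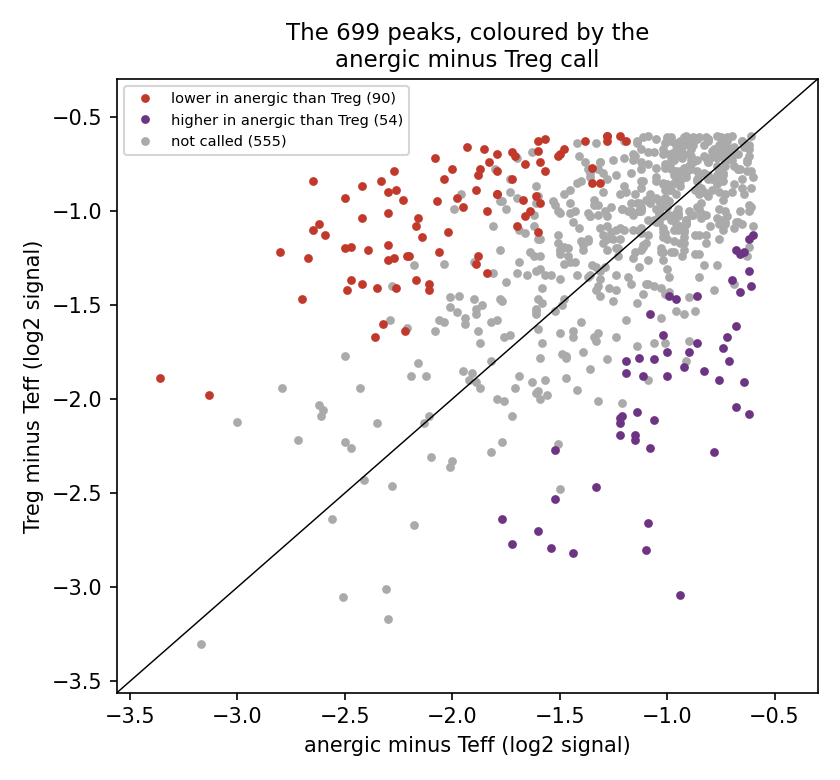
Difference in log2 signal of each of the 699 peaks for anergic minus Teff (horizontal) and Treg minus Teff (vertical). Points above the diagonal are lower in anergic than Treg cells (90 called, in red), points below it are higher (54 called, in purple), and 555 are not called.

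Members that were lowest in anergic relative to Treg cells had a middle level in Treg cells, which the rule itself sets. Tex2, which encodes a lipid-binding protein, had an intronic member (chr11:106598439-106598596) with 14.9, 10 and 10.7 units in anergic and 43.9, 55.3 and 34.2 units in Treg libraries, against 77.5, 85.9 and 73.3 units in Teff and 102 and 122 units in naive libraries. Vps37b, a subunit of the ESCRT-I sorting complex, had one 19.8 kb upstream (chr5:124051611-124052493) with 201, 183 and 91.3 units in anergic and 323, 562 and 486 units in Treg libraries, against 946, 921 and 707 units in Teff and 927 and 852 units in naive libraries. Anergic minus Treg was -1.81 ± 0.35 at Tex2 (limma adjusted p = 0.00045) and -1.56 ± 0.23 at Vps37b (limma adjusted p = 2.76e-05). Adgrl2, an adhesion receptor, had 1 of its 3 members among them (-1.58 ± 0.26, limma adjusted p = 9.31e-05, in a coding exon), and Srsf12, a splicing factor, had its only one (-1.56 ± 0.32, limma adjusted p = 0.000831).

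Members that were higher in anergic than Treg cells reached their lowest level in Treg cells, also by the rule. The largest difference was at a peak in the 3' UTR of Nemp2, a nuclear envelope protein (chr1:52649939-52650558), with 360, 366 and 295 units in anergic and 85.6, 80.9 and 68.4 units in Treg libraries, against 869, 588 and 537 units in Teff and 979 and 729 units in naive libraries. Among members whose anergic and Treg libraries did not overlap, Unkl, a RING finger protein, followed with 419, 373 and 379 units in anergic and 155, 132 and 110 units in Treg libraries, against 985, 770 and 767 units in Teff and 1067 and 815 units in naive libraries. Anergic minus Treg was 2.10 ± 0.19 at Nemp2 (limma adjusted p = 4.79e-08) and 1.56 ± 0.16 at Unkl (limma adjusted p = 3.72e-07). Nrd1, the peptidase nardilysin, differed by 1.45 ± 0.26 (limma adjusted p = 0.000167). Fbxo47, an F-box protein, had 91.2, 113 and 95.4 units in anergic and 38.3, 40.4 and 26.6 units in Treg libraries, against 177, 161 and 177 units in Teff and 275 and 199 units in naive libraries (anergic minus Treg, limma adjusted p = 7.62e-05). Anergic and Treg libraries did not overlap at any of the 4, and the 8 peaks of these 2 groups kept their calls in all 14 alternative fits.

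RUNX letters did not mark one direction of this difference. Of 373 distal members with RUNX letters, 12.9% were lower and 8.85% higher in anergic than Treg cells, and of 280 without them 13.6% and 5.36%. Distal members with the composite were called at 12 (10.8%, lower) and 4 (3.6%, higher) of 111. Over all distal tested peaks 18.6% were lower and 18.8% higher.

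Peaks of the same genes that were no members leaned the same way. Of 2981 such peaks, 31.9% were lower and 10.5% higher in anergic than Teff cells, against 14% and 16.7% of 34746 peaks of all other genes, and 16.8% and 15.9% of all tested peaks. For Treg against Teff cells they were lower at 25.7% and higher at 8.65%, against 18.2% and 14.4% of all tested peaks. In anergic against naive cells 38.6% were lower and 19.4% higher, against 25.1% and 25.3% of all tested peaks, and in Treg against naive cells 29.4% were lower and 15.6% higher, against 23% and 22.3%. These peaks lie near the members and were measured in the same libraries, and the comparisons share Teff or naive libraries.

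Among 70 peaks at marker genes of other cells that a sort could hold, 1 (1.43%) was a member, near the 1.82% of all peaks. No peak at B cell (12), myeloid and dendritic (19) or erythroid and platelet (8) marker genes was a member. Of 31 peaks at CD8, NK and innate-like T marker genes 1 was, nearest to Klrk1, the gene of the receptor NKG2D, with 31.5, 18.5 and 17.5 units in anergic and 46.2, 31.9 and 40.5 units in Treg libraries, against 120, 65.2 and 56.7 units in Teff and 116 and 67.4 units in naive libraries. The summed level of that list was 21290 to 26540 units in anergic, 19367 to 24758 in Treg, 25577 to 30062 in Teff and 23550 and 24189 in naive libraries. Myeloid and dendritic marker peaks summed to 10095 to 10447 units in anergic, 7552 to 8677 in Treg, 8659 to 9774 in Teff and 7348 and 7938 in naive libraries. Erythroid and platelet marker peaks summed to 4797 to 5173 units in anergic, 3623 to 3778 in Treg, 3857 to 4082 in Teff and 4481 and 4691 in naive libraries. The part of other cells in the members' pattern was not tested.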

How the data were processed

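ATAC-seq was measured in 11 libraries of 4 sorted CD4 T cell populations. Per the submitters' processing notes, reads were handled with Bowtie2 2.3.3.1, Genrich 0.5 and deepTools 3.5.1.0.1 on GRCm38 (mm10). The authors deposited 1 table of signal over 38509 consensus peaks. Each deposited signal value was a whole read count times a library factor (100.0% of values whole within 0.01). Peaks failing edgeR's low-count filter (16) were removed, and log2(signal + 1) was fitted over all 11 libraries with limma 3.58.1 in R 4.3.3, with Benjamini-Hochberg adjustment at 0.05. The anergic against Treg contrast was tested. Contrasts that chose the members were described. edgeR 4.0.16 on the recovered counts was an alternative. The scripts were tested on simulated data.

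Members and gene lists were chosen with earlier results of these data known. Named members were those with the largest margins, those of genes with several members, up to 3 per gene list by margin, Batf, the largest anergic against Treg calls and the peaks next to the threshold. Some members that this rule names are not reported here. Ighv peaks were chosen after their values were seen. Promoters were windows of 1000 bases around RefSeq start sites of GRCm38.p6, from which sequences were read, and letters were searched in 300 bases around each peak centre on both strands. Figures used Python 3.11.15 and matplotlib 3.10.9.

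Whether anergic and Treg libraries with the same replicate number were paired is not stated. Correlations of their deviations from the group means were 0.004, 0.022 and 0.155. Those of differently numbered anergic and Treg libraries ran from -0.165 to 0.114. With so few libraries these values cannot decide whether the numbers pair them.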

Additional observations from a re-analysis of the deposited data

How the results depend on the processing

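The number of members followed the bound: 1286 at 0.4, 391 at 0.8 and 221 at 1, against 699 at 0.6. Scaling by the total over all peaks gave 555 (522 of them among the 699) and TMM scaling 603 (598 among them). Leaving out 1 library gave 622 to 772. For anergic against Treg cells, 90 members were lower and 54 higher as fitted, 59 to 104 lower and 32 to 61 higher with 1 library left out, with a median of -0.19 to -0.01. Scaling by the total over all peaks left 35 higher and moved the members' median to -0.23 and that of all peaks to -0.09, against 0.04 on the deposited scale; the median of all peaks was -0.01 with TMM scaling and with edgeR, with or without the replicate block. With the replicate block in the limma fit, 103 members were lower and 61 higher. Whether the numbers pair the libraries is not known. Over the whole peak instead of 300 bases, shares of members were 10.9% for AP-1 (8.44% in 300 bases), 3.72% for T-box (2.15%), 22% for the E-box CAGCTG (17.9%), 29.9% for CAGGTG (24.3%) and 13% for the GC box (10.3%). With promoters drawn within 500 bases, 5.72% of members were promoters. Of 21 named peaks called, 6 lost the call under at least 1 alternative and none reversed. Of 52 named peaks not called, 12 gained a call under at least 1 alternative. Depth limits the weakest members, where 1 read in Treg replicate 2 is worth 2.13 units.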

Other observations

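Of 48 peaks whose nearest gene is an olfactory receptor, pseudogenes left out, 6 (12.5%) were members, a group noticed after the values were seen. Another member was nearest to the pseudogene Olfr1372-ps1. Their median signal was 44.8, 59.6 and 55.7 units in anergic and 57.4, 69.2 and 51.3 units in Treg libraries, against 182, 161 and 147 units in Teff and 151 and 169 units in naive libraries. Over all 48 peaks the median log2 difference was 0.03 for anergic minus Teff and -0.02 for Treg minus Teff.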
